A study of Mus musculus with 4 samples.

Results

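The early transcription factors that T cell receptor (TCR) signalling induces were followed in splenic CD4+ T cells that had or had not switched on an Il10 reporter. The set held 10 named genes of the 47643 in the deposited count table: the nuclear receptors Nr4a1, Nr4a2 and Nr4a3, the zinc finger factors Egr1 and Egr2, the proto-oncogene Myc, the interferon regulatory factors Irf4 and Irf8, and the AP-1 subunits Junb and Fosl2. They were taken by name, with earlier results of these data known, and each was matched to 1 Ensembl gene. With a minimum of 10 counts over the 4 libraries, 9 of them were among the 9608 genes tested, and Nr4a2 was below it.

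The cells came from Tg4 Nr4a3-Tocky Il10-eGFP mice. Their alleles are the Tg4 transgenic TCR for a peptide of myelin basic protein (MBP), a fluorescent Timer protein under the control of Nr4a3 and an eGFP reporter of Il10. All the mice were given 4 mg/kg of the peptide [4Y]-MBP in PBS under the skin, and spleens were taken 24 h later. The Il10-eGFP+ group was CD4+ Nr4a3-Timer+ Il10-eGFP+ T cells and the Il10-eGFP- group CD4+ Nr4a3-Timer+ Il10-eGFP- T cells, with 2 libraries each. By the methods, the sorted cells came from biological replicate mice. The labels do not say whether same-numbered libraries share a mouse, and the test used below was unpaired. Ages are not given in the sources used here, and no untreated or Timer-negative cells were part of this comparison. Both groups had therefore passed a gate on a reporter of one of the members, Nr4a3, so that the comparison is between cells that had all driven this reporter, and the Timer protein can outlast the transcript that it reports.

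As background, binding of peptide and MHC to the TCR raises calcium and activates NFAT, and activates the Ras and ERK pathway and PKC, and within hours these induce transcription factors that include the NR4A, EGR, AP-1, IRF4 and MYC proteins. NR4A proteins restrain effector genes in T cells, EGR2 is tied to T cell anergy, IRF4 works with BATF and JUN proteins at composite elements, and MYC drives growth and metabolism. Their transcripts are short-lived, so that their level in a sorted cell follows recent signalling more than past signalling.

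The promoters of the NR4A members are shown because each holds several copies of 1 short motif. Whether the change between groups differed among their transcripts was not tested. Sequences are from RefSeq on GRCm38.p6, 5′ to 3′ on the strand of the gene, and cover the 250 bases before a transcript start. Of the 10 members, 8 had such a window (all but Myc and Egr1), in 13 windows. Capitals mark the motif found. The Nr4a1, Nr4a2 and Nr4a3 windows lie at chr15:101266596-101266845 on the plus strand, chr2:57124004-57124253 on the minus strand and, for the 98 bases outside the annotated exons, chr4:48045055-48045152 on the plus strand, and the capitals in them mark TGACG, the core of a cAMP response element (CRE), in either orientation. The Nr4a1 window lies inside the annotated gene, outside its exons, before an internal start.
Nr4a1: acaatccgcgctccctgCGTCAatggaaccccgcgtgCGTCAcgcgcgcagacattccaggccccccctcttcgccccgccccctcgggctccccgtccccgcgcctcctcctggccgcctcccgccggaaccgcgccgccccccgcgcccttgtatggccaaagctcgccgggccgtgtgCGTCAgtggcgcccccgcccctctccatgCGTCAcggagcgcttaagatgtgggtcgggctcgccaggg
Nr4a2: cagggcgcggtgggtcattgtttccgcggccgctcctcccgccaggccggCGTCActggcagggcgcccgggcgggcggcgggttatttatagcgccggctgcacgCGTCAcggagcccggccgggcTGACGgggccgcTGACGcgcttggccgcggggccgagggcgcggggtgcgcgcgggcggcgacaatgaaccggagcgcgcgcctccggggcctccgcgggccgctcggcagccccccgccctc
Nr4a3: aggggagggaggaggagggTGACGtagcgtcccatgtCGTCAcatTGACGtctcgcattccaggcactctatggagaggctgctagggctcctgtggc
In the whole 250-base windows, Nr4a1, Nr4a2 and Nr4a3 each held 4 matches of this core, and 3 of those of Nr4a3 lie in the stretch printed. Of all 32851 promoter windows, 17.8% held at least 1 match and 0.137% (45 windows) held 4 or more. The core was not particular to the NR4A genes, since windows of Egr2 and Junb held it too, so that it was in 7 of the 13 member windows and in 5 of the 8 genes. The core was chosen after these windows had been read, and it is part of the full element TGACGTCA, which none of the member windows held against 1.55% of all windows.

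The NFAT core GGAAAA was found in a window of Egr2 alone (20.4% of all windows), and so was the E-box CACGTG (6.02%). No member window held the AP-1 site TGANTCA (6.75% of all windows) or the NR4A element AAAGGTCA (1.34%). Both strands were searched, and a match describes the letters and not the binding of a factor.

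The 4 libraries were of similar size, with 644679 to 730330 counts each, and 10.6% to 12.0% of the counts were in mitochondrial genes. Il10, the gene of the reporter used for the sort, had 0 counts in both Il10-eGFP- libraries and 29 and 41 counts in Il10-eGFP+ replicates. Levels are given as CPM, the counts of a gene per 1000000 counts of its library after TMM scaling. The library method primes at the 3′ end of transcripts, so that counts are not scaled by length, and the members were compared between groups and not with each other. Among all 9608 genes, 393 (4.09%) passed an adjusted p of 0.05 in the quasi-likelihood F test of edgeR, adjusted by the Benjamini-Hochberg method, 226 (2.35%) higher and 167 (1.74%) lower in Il10-eGFP+ cells. In these bulk samples, fewer cells with a transcript and less of it per cell cannot be told apart.

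Of the 9 members tested, Myc and Irf8 fell in Il10-eGFP+ cells and 0 rose, and at an unadjusted p under 0.05 in edgeR 6 were lower and 0 higher. DESeq2 called 0 of the 9, but with its default filtering it gave no adjusted p to 4 of them, among them Myc. Without independent filtering it called 0 too. In DESeq2, 4 were at an unadjusted p under 0.05, all lower. Of the genes that it gave an adjusted p by default, 0.77% were called lower. By limma on the deposited rlog values Irf8 was called, beside 0.974% of all genes called lower. The 1.74% of all genes that fell is the share to set beside these 2 of 9, and among the 1226 genes that averaged at least 100 counts per library 6.12% fell. The fitted log2 fold change was below 0 for 8 of the 9, all but Fosl2, against 50% of all genes tested, and the median over the 9 was -0.63 against 0 over all genes. In 7 of the 9, both Il10-eGFP+ libraries lay below both Il10-eGFP- libraries in CPM, an order that 22.3% of all genes tested had. Fosl2 had the opposite order and Egr1 overlapped. The members were chosen with earlier results of these data known, so the shares set beside them are a description. The members added up to 847 and 846 CPM in Il10-eGFP- replicates and to 654 and 489 CPM in Il10-eGFP+ replicates.

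**Figure D1:**
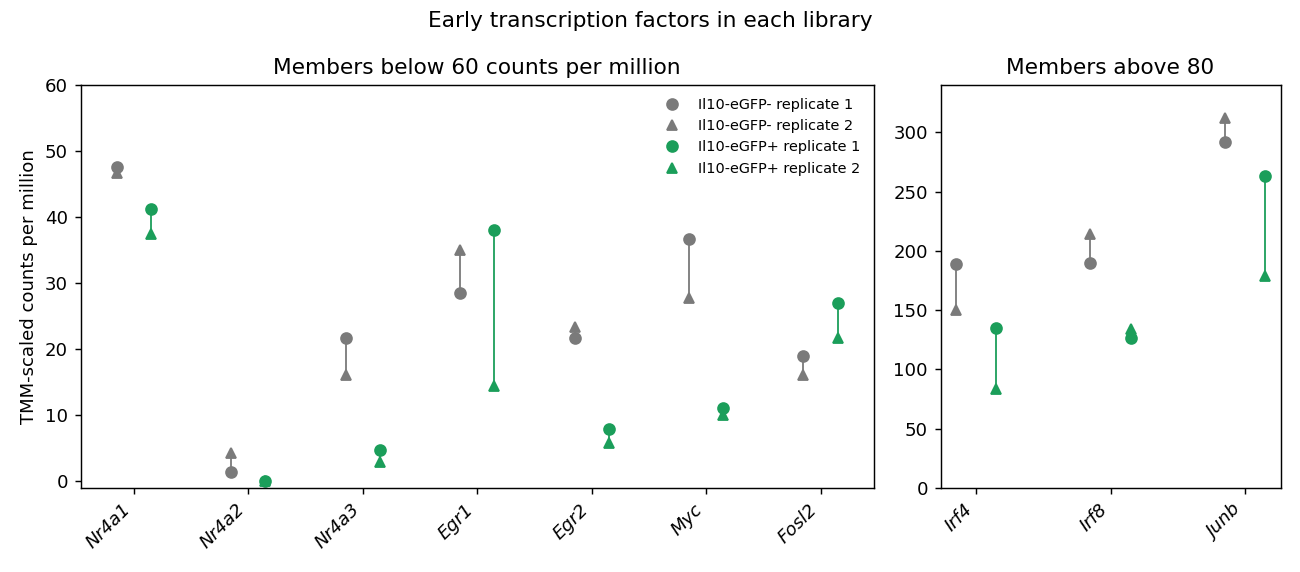
TMM-scaled CPM (y axis) of each member in the Il10-eGFP- (grey) and Il10-eGFP+ (green) libraries, with replicate 1 as a circle, replicate 2 as a triangle and a line joining the libraries of a group. Irf8 sits at 190 and 214 CPM in Il10-eGFP- against 127 and 134 CPM in Il10-eGFP+ cells, while the Egr1 libraries of Il10-eGFP+ cells, at 38.0 and 14.4 CPM, lie on both sides of the other group.

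The NR4A genes encode orphan nuclear receptors that bind DNA without a known physiological ligand. Nr4a1, which encodes Nur77 and lies at chr15:101254269-101274795, had 35 and 32 counts in Il10-eGFP- replicates and 26 and 26 in Il10-eGFP+ replicates. The CPM were 47.1 ± 0.578 and 39.4 ± 2.61 (SD, n = 2 libraries each). Although the groups did not overlap, the difference was small, a log2 fold change of -0.26 with a standard error (SE) of 0.32, a 95% interval from -0.91 to 0.39 and an adjusted p of 0.792 in edgeR. The ratio of summed counts per library total, Il10-eGFP+ over Il10-eGFP-, was 0.818, and its exact 95% interval of 0.558 to 1.19 includes equal levels. Such intervals here cover counting error only, and reads that come from the same molecule by PCR are not independent.

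Nr4a3 (chr4:48045153-48086447), the gene whose regulatory sequence drives the Timer reporter, had 16 and 11 counts in Il10-eGFP- replicates and 3 and 2 in Il10-eGFP+ replicates. Both Il10-eGFP+ libraries were thus well below both others, on very few counts. The levels were 18.9 ± 4.01 and 3.82 ± 1.32 CPM (SD, n = 2 each), and the count ratio was 0.195 with an exact 95% interval of 0.0587 to 0.514. The log2 fold change of -2.27 (SE 0.72, 95% interval -3.70 to -0.84) had an adjusted p of 0.0569 in edgeR and did not pass the threshold. Of the fits without a replicate block, it passed in the one with no filter on low counts (adjusted p = 0.0426, edgeR), and over the alternatives in which it was tested its adjusted p ran from 0.0426 to 0.696. This reading concerns the endogenous transcript in cells that were all Timer-positive.

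Nr4a2 (chr2:57106830-57124003) had 1 and 3 counts in Il10-eGFP- replicates and 0 in both Il10-eGFP+ libraries. At this depth no difference was detectable, since both groups were at or below 3 counts per library, and no fold is given. Within the NR4A family, the counting interval of the Nr4a3 ratio ended at 0.514 and that of Nr4a1 began at 0.558. The edgeR intervals of their log2 fold changes, which include variation between libraries, overlapped (-3.70 to -0.84 for Nr4a3 and -0.91 to 0.39 for Nr4a1). The difference between these genes was not itself tested.

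Egr1 and Egr2 encode zinc finger factors of the ERK pathway, which activate many genes and are held back by the co-repressors NAB1 and NAB2. Egr2 (chr10:67535475-67542188) had 16 counts in both Il10-eGFP- replicates and 5 and 4 in Il10-eGFP+ replicates. The replicates were close within each group and the groups lay far apart, at 22.5 ± 1.15 and 6.85 ± 1.52 CPM (SD, n = 2 each). The count ratio was 0.296 (exact 95% interval 0.124 to 0.635). With a log2 fold change of -1.70 (SE 0.59, 95% interval -2.88 to -0.51) and an adjusted p of 0.0949 in edgeR, Egr2 did not pass the threshold in this fit, nor in any alternative in which it was tested (adjusted p from 0.077 to 0.852).

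Egr1, on chromosome 18, overlapped between the groups. It had 21 and 24 counts in Il10-eGFP- replicates and 24 and 10 in Il10-eGFP+ replicates, so that in CPM 1 Il10-eGFP+ library was above and 1 below both of the others. Means were 31.8 ± 4.61 and 26.2 ± 16.7 CPM (SD, n = 2 each), and the log2 fold change of -0.29 (SE 0.41) had an adjusted p of 0.83 in edgeR. Its sign rested on Il10-eGFP+ replicate 2, without which the log2 fold change was 0.26. Of the EGR relatives, Egr3 and Egr4 had 0 counts in every library. The co-repressor Nab1 had 142 ± 6.23 and 122 ± 0.438 CPM (SD, n = 2 each), and Nab2 had 56.1 ± 5.09 and 46.4 ± 10.6 CPM. Of these 2 tested genes of the list, 0 were called by edgeR, DESeq2 or limma, and 0 had an unadjusted p under 0.05 in edgeR.

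MYC is a basic helix-loop-helix factor that binds E-boxes as a dimer with MAX and raises the output of genes for ribosome assembly, nucleotide and polyamine synthesis and nutrient uptake. Myc (chr15:61985391-61990374) fell in Il10-eGFP+ cells. It had 27 and 19 counts in Il10-eGFP- replicates and 7 in both Il10-eGFP+ replicates, with no overlap. The levels were 32.2 ± 6.31 and 10.6 ± 0.702 CPM (SD, n = 2 each), a fitted 3.02-fold lower level. The log2 fold change was -1.59 (SE 0.49, 95% interval -2.57 to -0.62), with an adjusted p of 0.0465 in edgeR. The count ratio was 0.321, and its exact 95% interval of 0.163 to 0.594 lies below equal levels. The call was close to the threshold: it was lost with each of the 4 libraries left out in turn (log2 fold change -1.77 to -1.37, adjusted p from 0.071 to 0.303), in DESeq2 without independent filtering (adjusted p = 0.687) and in limma on the rlog values (adjusted p = 0.14).

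The partners and rivals of MYC changed in both directions. Max, which encodes the dimer partner of MYC and of the MXD proteins, fell from 348 ± 52.6 to 209 ± 19.3 CPM (SD, n = 2 each), a log2 fold change of -0.73 (SE 0.16) with an adjusted p of 0.00286 in edgeR. Its counts were 229 and 264 in Il10-eGFP- replicates and 123 and 154 in Il10-eGFP+ libraries. Mxd1 and Mxd3 encode repressors that compete with MYC for MAX, and both rose. Mxd1 had 26 and 23 counts against 42 and 54, with a log2 fold change of 1.07 (SE 0.30, adjusted p = 0.0282 in edgeR). For Mxd3 the counts were 16 and 17 against 39 and 32, and the log2 fold change was 1.21 (SE 0.36, adjusted p = 0.0384 in edgeR). These were 3 of the 7 tested genes of the MYC network list, beside 4.09% of all genes, with a median of 0.06 on the log2 scale against 0 over all genes. Among the others, Mga, a large MAX partner, had 85.9 ± 22.5 and 64.4 ± 5.33 CPM, and Mxd4, Mnt and Mlx did not pass the threshold. Mxi1 was too low to be tested. With libraries left out in turn, Max was called in 2 of the 4 fits and Mxd1 and Mxd3 in 0, DESeq2 called Max alone of the 3 with its default filtering and 0 of them without it, and limma on the rlog values called Max alone.

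Of 18 listed MYC target genes, all tested, 6 fell and 0 rose (11 and 0 at an unadjusted p under 0.05 in edgeR). Beside this, 1.74% of all genes fell, or 6.12% of those averaging at least 100 counts. The list, like that of the MYC network, was chosen with earlier results of these data known, so these shares are a description. The fitted log2 fold change was below 0 in all 18 with every library kept, and in 16 to 18 with 1 left out, against 50% of all genes and 53.8% of the abundant ones, with a median of -0.45. Srm, which encodes spermidine synthase, fell most, from 782 ± 45.6 to 416 ± 74.6 CPM (SD, n = 2 each), with a log2 fold change of -0.91 (SE 0.14) and an adjusted p of 1.02e-05 in edgeR. It was also called under each of the 13 alternatives. Tfrc, the transferrin receptor, fell from 377 ± 56.3 to 222 ± 20.05 CPM, and Slc3a2, the heavy chain of an amino acid transporter, from 183 ± 44.4 to 116 ± 6.60 CPM. Their log2 fold changes were -0.77 and -0.67 (adjusted p = 0.00123 and 0.0405 in edgeR). The call of Slc3a2 was close to the threshold: it was lost in DESeq2 (adjusted p = 0.391), in limma on the rlog values (adjusted p = 0.15) and in 3 of the 4 fits with 1 library left out, with a log2 fold change of -0.39 without Il10-eGFP- replicate 1.

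Mybbp1a, a nucleolar protein, fell by 0.56 on the log2 scale, and Hspd1, a mitochondrial chaperone, by 0.54. Npm1, a nucleolar protein with 2586 and 2765 counts against 1719 and 1985, fell by 0.43. In contrast, Ldha and Nme1 had log2 fold changes of -0.03 and -0.07 and Cdk4 had -0.17, and none of these passed the threshold. Mybbp1a was not called by DESeq2 (adjusted p = 0.126), nor Npm1 by limma (adjusted p = 0.0527). Counts of called targets ran from 2 to 4 with each library left out, where Tfrc was called in 3 of the 4 fits, Hspd1 in 2, and Mybbp1a and Npm1 in 1 each. Many of these genes are also raised by growth signals other than MYC.

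**Figure D2:**
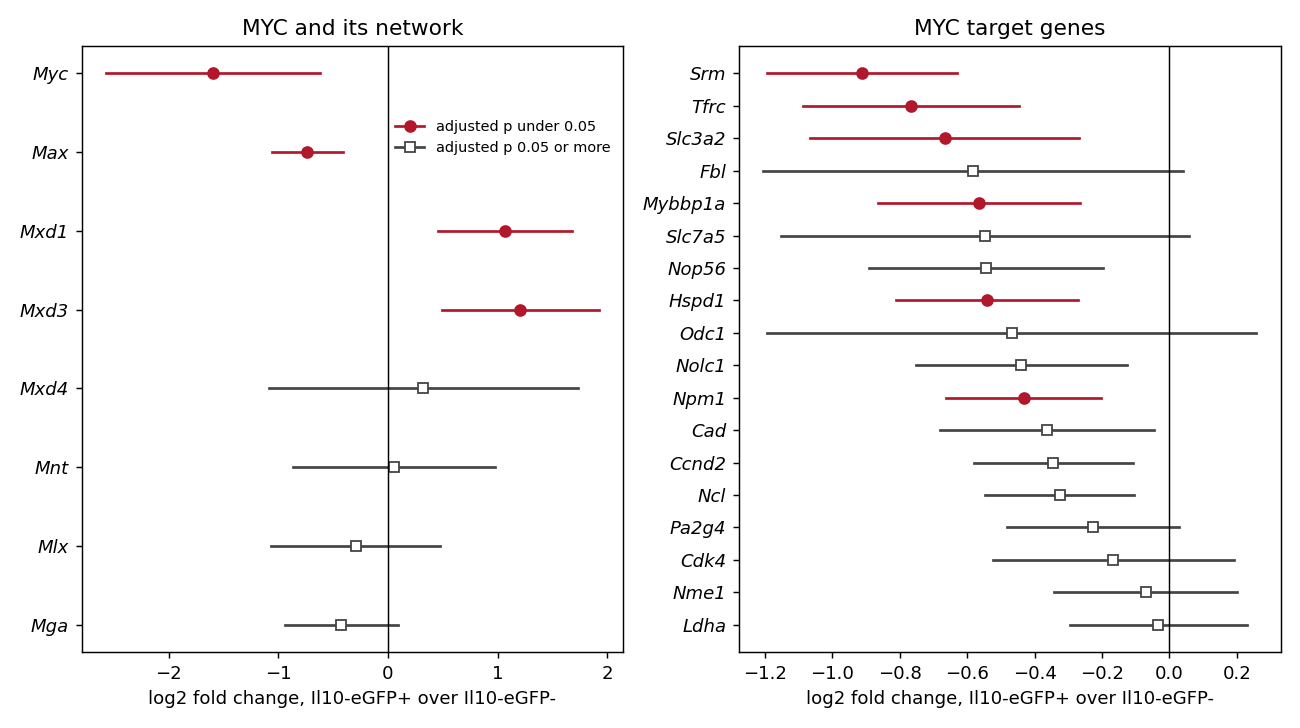
Log2 fold change (x axis, Il10-eGFP+ over Il10-eGFP-) with its 95% interval for Myc and the tested genes of its network (left) and for 18 MYC target genes (right), where filled red points have an adjusted p under 0.05 in edgeR. Myc and Max lie below 0 and Mxd1 and Mxd3 above it, and all 18 targets lie below 0, from -0.91 for Srm to -0.03 for Ldha.

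Irf4 and Irf8 encode interferon regulatory factors that bind DNA with partners such as PU.1 and BATF. Irf8 (chr8:120736358-120756694) fell in Il10-eGFP+ cells. Its counts were 140 and 147 in Il10-eGFP- replicates and 80 and 93 in Il10-eGFP+ replicates, and the replicates of each group lay close together. The levels were 202 ± 17.3 and 130.5 ± 5.24 CPM (SD, n = 2 each), a fitted 1.55-fold lower level. The log2 fold change was -0.63 (SE 0.19, 95% interval -1.0 to -0.26), with an adjusted p of 0.0384 in edgeR, and the count ratio was 0.635 (exact 95% interval 0.523 to 0.77). Irf8 was also called under 7 of the 9 alternatives that kept all 4 libraries, and not by DESeq2's Wald test (adjusted p = 0.336, and 0.554 without independent filtering). It was called in 0 of the 4 fits with 1 library left out, where its log2 fold change stayed between -0.72 and -0.54 and its adjusted p between 0.0709 and 0.245. It was the only member called by limma on the deposited rlog values (adjusted p = 0.0456).

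Irf8 is also known for its high level in dendritic cells, B cells and macrophages, so the markers of these cells are given beside it. The 10 B cell markers added up to 117 and 160 CPM in Il10-eGFP- against 417 and 491 CPM in Il10-eGFP+ replicates, and Igkc, Ighm and Cd22 rose (log2 fold changes 3.12, 1.30 and 3.03). DESeq2 and limma on the rlog values each called 2 of the B cell markers. Myeloid markers added up to 71.9 and 107 against 349 and 138 CPM, and Lyz2 and S100a8 rose, by log2 fold changes of 1.06 and 2.35 (adjusted p = 0.0414 and 0.000582 in edgeR). S100a8 was uneven within the groups, with 1 and 17 counts against 58 and 28, and DESeq2 and limma each called 0 myeloid markers. Of 11 dendritic cell markers, the lineage-defining Xcr1, Clec9a, Flt3, Siglech, Zbtb46 and Cd209a had 0 counts in every library. The list added up to 661 and 877 against 822 and 795 CPM, mostly from Bst2, which T cells also express, and H2-Aa of MHC class II rose by a log2 fold change of 1.67.

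The B cell and myeloid sums were thus higher in the group in which Irf8 was lower. The part of these cells in the Irf8 values was not tested. CD8 and NK markers added up to 35.3 and 51.1 against 25.4 and 34.6 CPM, with Ncr1 at 0, and Adgre1 of macrophages was at 0 too. Of these markers Cd8b1, Cd8a and Klrd1 were tested (log2 fold changes -0.70, -1.10 and -0.08), and 0 were called by edgeR, DESeq2 or limma or had an unadjusted p under 0.05 in edgeR. Of the 8 T cell markers, Trac rose (log2 fold change 0.59) and the other 7 did not pass the threshold. At an unadjusted p under 0.05 in edgeR were 5 of the 8, all higher. The fitted log2 fold change was above 0 in 7 of the 8, with a median of 0.38. Cd4 had 213 ± 6.87 and 279 ± 31.7 CPM (SD, n = 2 each). Of the 7 tested handling stress genes, 0 passed the threshold in edgeR (2 at an unadjusted p under 0.05) or the other tools, and Hspa1a was at 0. The 4 most abundant, Hspa8, Hsph1, Dnajb1 and Btg2, had log2 fold changes of -0.28, -0.25, -0.28 and 0.06. The genes at an unadjusted p under 0.05 were Hspa8, which was lower, and Socs3, which was higher, with 56 and 25 counts against 59 and 71 and a log2 fold change of 0.79 (adjusted p = 0.0848 in edgeR).

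**Figure D3:**
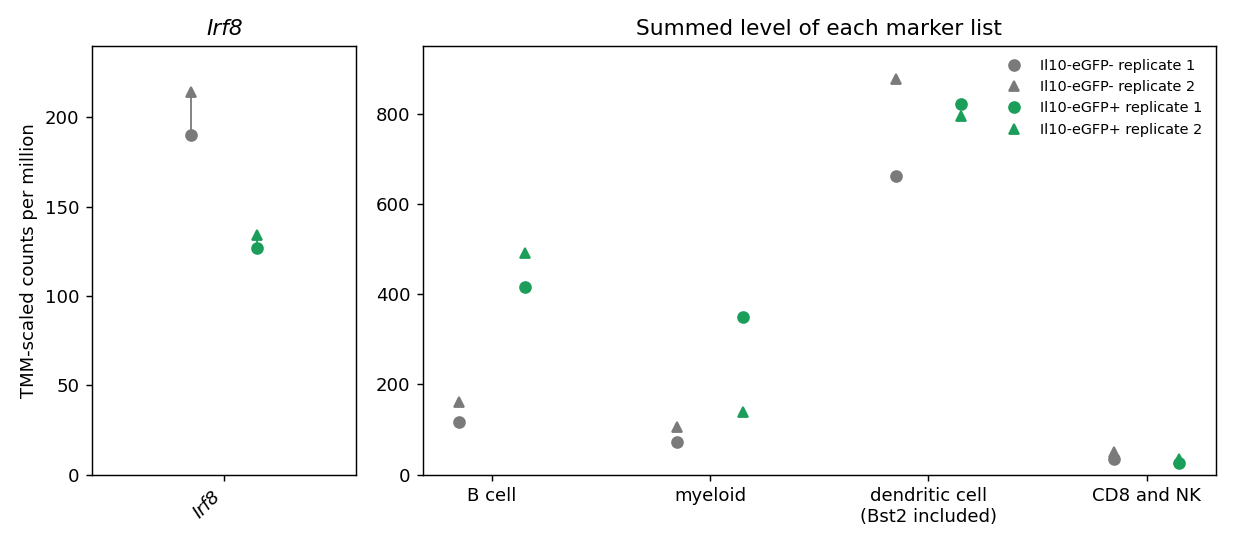
TMM-scaled CPM (y axis) of Irf8 (left) and of the summed markers of other cell types (right) in each library, with Il10-eGFP- in grey, Il10-eGFP+ in green, replicate 1 as circles and replicate 2 as triangles. Irf8 is lower in both Il10-eGFP+ libraries, while the B cell sum is 117 and 160 CPM in Il10-eGFP- against 417 and 491 CPM in Il10-eGFP+ libraries.

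Irf4 (chr13:30749226-30766976), known to follow TCR signal strength, had 139 and 103 counts in Il10-eGFP- replicates and 85 and 58 in Il10-eGFP+ replicates. The groups did not overlap, but the libraries of each were spread, at 189 and 150 CPM against 135 and 83.7 CPM. The log2 fold change of -0.65 (SE 0.21, 95% interval -1.06 to -0.23) was as large as that of Irf8, but its adjusted p of 0.0666 in edgeR did not pass the threshold. The count ratio was 0.623 (exact 95% interval 0.503 to 0.769). Leaving out Il10-eGFP+ replicate 1 moved the log2 fold change to -1.02 (adjusted p = 0.00828), and leaving out Il10-eGFP+ replicate 2 moved it to -0.33 (adjusted p = 0.612). Of the other fits without a replicate block, Irf4 passed when 10 counts were required in every library (adjusted p = 0.0341) and without Il10-eGFP- replicate 2 (adjusted p = 0.0405).

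The other interferon regulatory factors did not follow Irf4 and Irf8 in sign. All 5 tested of the 6 listed had a fitted log2 fold change above 0, with a median of 0.32, and 0 passed the threshold in edgeR, DESeq2 or limma, or an unadjusted p of 0.05 in edgeR. Irf1, an early target of interferon gamma, had 165 ± 14.4 and 178 ± 1.01 CPM (SD, n = 2 each). For Irf2 the log2 fold change was 0.32, for Irf9 of the interferon-stimulated complex it was 0.30, and for Irf3, a sensor-activated factor, it was 0.72 (adjusted p = 0.363 in edgeR). Irf5 was too low to be tested.

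AP-1 is a dimer of JUN and FOS proteins that acts with NFAT at cytokine genes. Junb (chr8:84974484-84978718, minus strand) had 215 and 214 counts in Il10-eGFP- replicates and 166 and 124 in Il10-eGFP+ replicates. In CPM this was 302 ± 14.4 and 221 ± 59.5 (SD, n = 2 each), without overlap but with a wide spread in Il10-eGFP+ cells. The log2 fold change of -0.46 (SE 0.17, 95% interval -0.79 to -0.12) had an adjusted p of 0.121 in edgeR, and the count ratio was 0.712 (exact 95% interval 0.612 to 0.829). Of the fits without a replicate block it passed in 1, in which Il10-eGFP+ replicate 1 was left out and the fitted difference was -0.75 on the log2 scale (adjusted p = 0.0231), while with Il10-eGFP+ replicate 2 left out it was -0.20 (adjusted p = 0.771). Exons of Junb overlap those of Prdx2 on the opposite strand, which had 53 and 53 counts against 47 and 67. The strand setting of the counting is not given in the sources used here.

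Fosl2 (chr5:32135801-32157842), which encodes FRA2, was the only member with a fitted log2 fold change above 0. Its counts were 14 and 11 in Il10-eGFP- replicates and 17 and 15 in Il10-eGFP+ replicates, or 17.5 ± 2.09 and 24.3 ± 3.75 CPM (SD, n = 2 each). The log2 fold change of 0.46 (SE 0.46, 95% interval -0.47 to 1.39) did not pass the threshold (adjusted p = 0.727 in edgeR), and the interval of the count ratio, 0.774 to 2.37, includes equal levels. Of the 6 tested AP-1 relatives, 3 had a sign above and 3 below 0, and 0 were called by edgeR, DESeq2 or limma (1 at an unadjusted p under 0.05 in edgeR, Fosb). Jund had 302 ± 25.3 and 258 ± 47.0 CPM (SD, n = 2 each), Batf, the partner of IRF4, had 89.3 ± 26.4 and 78.8 ± 15.1 CPM, and Jun had 33.3 ± 8.66 and 44.98 ± 9.83 CPM. Fosb had 10 and 11 counts against 18 and 25, log2 fold change 1.12 (adjusted p = 0.171 in edgeR).

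**Figure D4:**
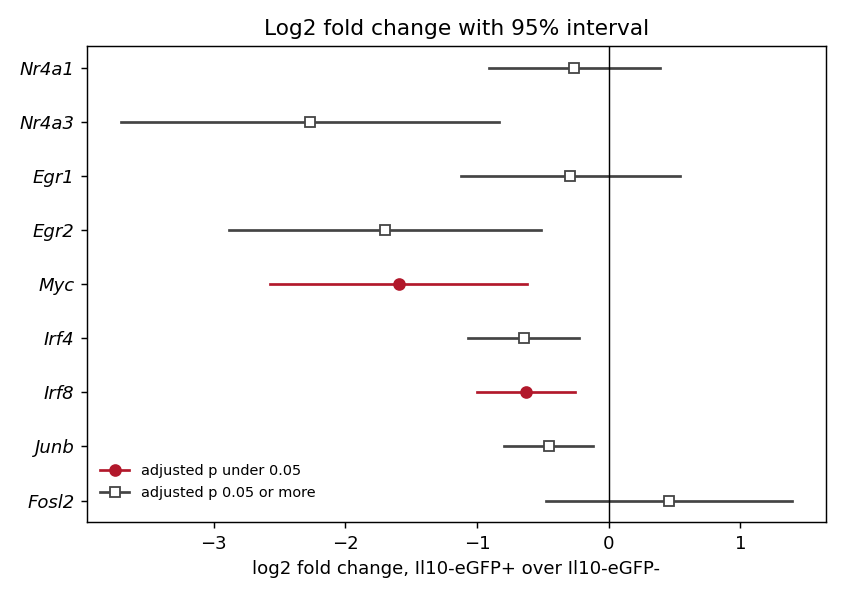
Log2 fold change (x axis, Il10-eGFP+ over Il10-eGFP-) with its 95% interval for the 9 members tested, where filled red points have an adjusted p under 0.05 in edgeR and open squares do not. The intervals of Nr4a3, Egr2, Myc, Irf4, Irf8 and Junb lie below 0 before adjustment, and after it Myc and Irf8 passed the threshold.

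**Figure D5:**
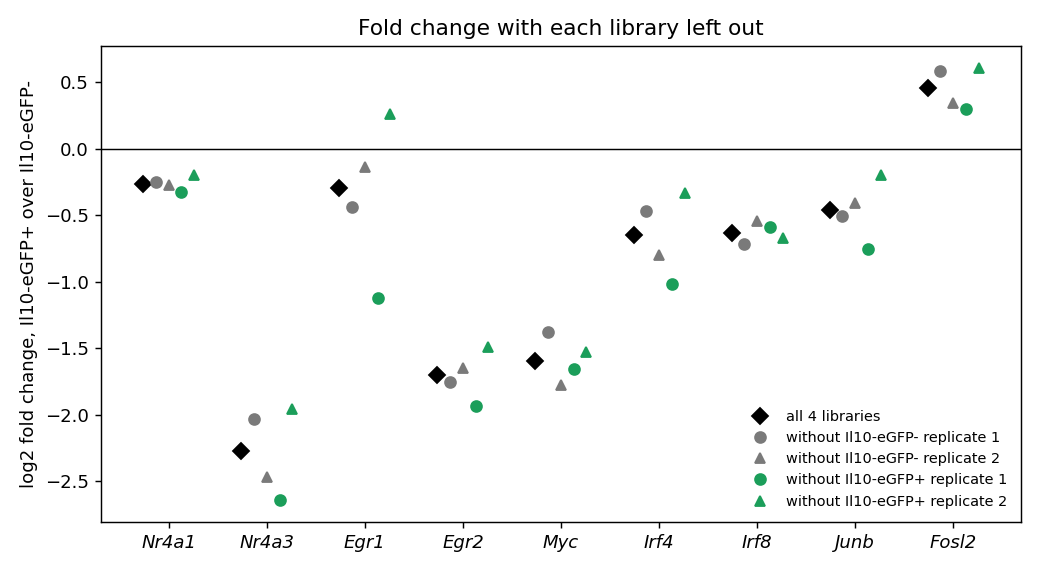
Log2 fold change (y axis, Il10-eGFP+ over Il10-eGFP-) of each tested member with all 4 libraries (black) and with 1 library left out (grey for an Il10-eGFP-, green for an Il10-eGFP+ library). Irf8 stays between -0.72 and -0.54, while Irf4 runs from -1.02 to -0.33, Junb from -0.75 to -0.20 and Egr1 from -1.12 to 0.26.

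Il10-eGFP+ replicate 2 had the lower level of the Il10-eGFP+ libraries in each tested member except Irf8, most clearly in Egr1, Irf4 and Junb. The genes closest in pattern to a member over the 4 libraries were searched among 4964 genes averaging at least 20 counts, by the distance between log2 CPM centred on the mean of each gene. For Irf8 they were Psmd6, Elavl1 and Afg3l2 (distances 0.0376, 0.0514 and 0.0812 on the log2 scale), of which Psmd6, a proteasome subunit, fell too (log2 fold change -0.66, adjusted p = 0.0436 in edgeR). The closest to Irf4 were Zfp275, Usp36 and Smarcad1 (0.0472 to 0.0992), to Junb Ciao2b, Elac2 and Dhx36 (0.0623 to 0.0678), and to Nr4a1 Rbm8a, Bmyc and Anp32e (0.0268 to 0.0473). The likeness rests on 4 points per gene and is given as a description.

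The deposited rlog values gave the same signs on a compressed scale. The difference of group means, Il10-eGFP+ minus Il10-eGFP-, was -0.33 for Irf8, -0.31 for Irf4 and -0.29 for Junb, and -0.20 for Myc, -0.15 for Egr2 and -0.15 for Nr4a3. The rlog transform draws genes with few counts towards their mean, so that Nr4a3, with the largest fitted fold of the members, had one of the smaller rlog differences. Nr4a1, Egr1 and Fosl2 had -0.06, -0.05 and 0.06, and Nr4a2 was not among the 9546 genes of that table.

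Upstream of the members, 0 of the 4 NFAT genes were called by edgeR, DESeq2 or limma, and 0 had an unadjusted p under 0.05 in edgeR. Nfatc1 had 245 ± 3.42 and 222 ± 9.82 CPM, Nfatc2 127 ± 18.4 and 109 ± 2.36 CPM and Nfatc3 200 ± 3.28 and 234 ± 4.84 CPM (SD, n = 2 each), and Nfat5 had a log2 fold change of -0.50. Of the 23 listed readouts of TCR signalling, all tested, Icos alone passed the threshold in edgeR, or 4.35% beside 4.09% of all genes. At an unadjusted p under 0.05 were 4 of them, Icos and Ier3 higher and Dusp2 and Il2 lower. Icos, a costimulatory receptor, rose from 365 ± 40.5 to 645 ± 18.2 CPM (SD, n = 2 each), a log2 fold change of 0.82 (SE 0.14, adjusted p = 8.78e-05 in edgeR), and it was called under each of the 13 alternatives too. Of these readouts 12 had a sign below 0 and 11 above, and their median log2 fold change was -0.12. Ier3, Dusp2 and Il2 are named here after their values were seen. Il2 had 8 counts in both Il10-eGFP- replicates and 1 and 0 in Il10-eGFP+ replicates, a count ratio of 0.0659 (exact 95% interval 0.00157 to 0.424) with an adjusted p of 0.0724 in edgeR. Ier3 had the opposite order on as few counts, 0 and 1 against 4 and 5, with a count ratio of 9.48 (exact 95% interval 1.31 to 416) and an adjusted p of 0.264 in edgeR. Dusp2, a phosphatase of MAP kinases, had 185 ± 0.494 and 136 ± 3.82 CPM (SD, n = 2 each), a log2 fold change of -0.44 with an adjusted p of 0.207 in edgeR.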

How the data were processed

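The authors deposited raw counts of reads per Ensembl gene, made from QuantSeq 3′ FWD libraries (5 ng of RNA, 22 PCR cycles) with the BlueBee pipeline, with STAR 2.5.2a and HTSeq 0.6.0 named in the submitters' processing notes, on GRCm38. They also deposited rlog values (log2 scale) made with DESeq2, which a recomputation from the counts matched. The paper's methods state that molecular identifiers served to assess duplicate reads and to correct for uneven amplification. Whether the deposited counts were collapsed by these identifiers is not given in the sources used here. The annotation release and the strand setting are not given there either. The methods and the labels name different RNA extraction kits, and a further replicate pair that the authors removed was not analysed here.

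A gene entered the test when its counts over the 4 libraries reached 10. The test was the legacy quasi-likelihood fit of edgeR 4.0.16 with TMM factors in R 4.3.3, with all 4 libraries, no block and a Benjamini-Hochberg threshold of 0.05. DESeq2 1.42.0 and limma 3.58.1 on the rlog values were alternatives. Ratios of summed counts have exact Clopper-Pearson intervals (95%), and the floor is 3 counts per library. With 2 libraries against 2, an exact permutation test of 1 gene cannot go below p = 0.333, so none is given. Symbols were missing for 419 of 47643 identifiers. Gene positions are from GENCODE M21.

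The members and the gene lists were chosen with earlier results of these data known. Named in the text are all members, each listed gene past the threshold or, where a list had none, its 4 most abundant tested genes, and the 3 genes nearest in pattern to each member with a mean of at least 20 counts. Further genes were named after their values were seen (Mga, Mxd4, Mnt, Mlx, Ldha, Nme1, Cdk4, Cd4, Socs3, Ier3, Dusp2, Il2 and genes at 0 or too low to test). A planned promoter motif is not reported here.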

Additional observations from a re-analysis of the deposited data

How the results depend on the processing

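The fitted sign of each tested member was kept under each alternative that gave it an adjusted p (11 of 13 for Nr4a3, Egr2 and Myc, 12 for Fosl2 and 13 for the others), except Egr1, whose log2 fold change ran from -1.12 without Il10-eGFP+ replicate 1 to 0.26 without Il10-eGFP+ replicate 2. The calls moved more. With each library left out, where the lone library of a group is assumed to vary like the others, 0 to 2 members, 201 to 264 genes, 3 to 5 listed pathway genes (10 with all libraries), 2 to 4 MYC targets (6) and 0 to 1 MYC network genes (3) were called. Of the members these were Irf4 in 2 of the fits and Junb in 1. DESeq2's Wald test called 0 members, 112 genes, 6 pathway genes and 1 network gene, and gave no adjusted p to 4284 genes, among them Nr4a3, Egr2, Myc and Fosl2. Without independent filtering, an alternative chosen after seeing the data, it called 0 members, 68 genes, 3 pathway genes, 2 MYC targets and 0 network genes. By limma on the rlog values, 1 member, 197 genes and 1 network gene were called. The labels do not say that a replicate number marks a mouse, the methods speak of a replicate pair without tying it to a number, deviations of same-numbered libraries did not move together (correlation 0.0324 over 4965 genes), and a replicate block gave 5 members (Nr4a3, Irf4 and Junb, adjusted p = 0.0435, 0.0201 and 0.0388, besides Myc and Irf8), 560 genes and 10 MYC targets. Scaling by DESeq2 size factors or library size and bias-adjusted deviances kept the calls of Myc and Irf8 and added 0 members. Dropping the filter added Nr4a3, and 10 counts in every library called Irf4 and Irf8 and left Myc untested. The cause of these changes was not tested, other than fewer libraries or genes in the fit. Counts under 30 per library limit Nr4a3, Egr1, Egr2, Myc and Fosl2, and the count ratio of Egr1 ran from 0.45 to 1.17 with each library left out.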
